A study of Mus musculus with 13 samples.

Results

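The genes described here encode the proteins of the mitochondrial ribosome, measured in mouse liver after streptozotocin and after a mock injection. The set was defined by name: every gene whose symbol begins with Mrpl or Mrps followed by a number, pseudogenes left out, with the brightest probe set standing for a gene that had several. This gave 77 genes of 19938 named genes on the array, 48 of the large subunit (Mrpl) and 29 of the small subunit (Mrps). RefSeq lists 78 protein-coding mouse genes under the same naming rule. Mrpl53 is the one without a value here, because no probe set carries its symbol alone.

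Both groups were wild-type male C57BL/6N mice, 5 to 6 months old when their livers were taken. The STZ group (6 mice) had received 65 mg/kg streptozotocin, a toxin of the insulin-producing beta cells, by intraperitoneal injection daily for 5 days at 10 to 16 weeks of age, a standard model of type 1 diabetes. The control group (7 mice) had received citrate buffer in the same way, and all livers were collected 9 to 11 weeks later. Whole-liver RNA was hybridised to 1 Affymetrix array per mouse, and values are log2 intensities, so a difference of 1 is a doubling. In bulk tissue, a change in the number of cells of a type cannot be told apart from a change in RNA per cell.

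The mitochondrial ribosome makes the few proteins encoded by mitochondrial DNA, all of them core subunits of the respiratory chain and ATP synthase. Its rRNAs come from mitochondrial DNA, but all of its proteins are encoded in the nucleus, made in the cytosol and imported. The large subunit holds the peptidyl transferase centre, the stalk that recruits elongation factors and an exit tunnel docked to the inner membrane, while the small subunit reads the mRNA. Many of its proteins have no counterpart in bacteria. Liver is rich in mitochondria, and the series' title places liver mitochondrial function in insulin-resistant and diabetic states at the centre of the study.

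The 77 genes were well measured. Their mean log2 signals ran from 6.52 to 10.59 with a median of 8.95, and 75 of 77 lay above the median named gene at 6.65. Between arrays, whole-array correlations were 0.993 to 0.997 among controls, 0.986 to 0.995 among STZ arrays and 0.982 to 0.994 across the groups. Control replicate 2 and STZ replicate 2 gave the lowest signal for the mitochondrial ribosomal genes in their groups. Control replicate 2 was the lowest control for 32 of the 77 genes (41.6%, against 17.9% of all named genes), and STZ replicate 2 was the lowest STZ array for 34 of 77 (44.2%, against 20.5%). Control replicate 6 stood out the other way, as the highest control for 31 of 77 genes (40.3%, against 14.0%). Results are therefore also given without these arrays where that changes them.

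Cell type markers were examined beside the ribosomal genes. The mean of 7 hepatocyte markers, which include albumin, spanned 12.96 to 13.04 in controls and 12.97 to 13.03 in STZ livers, with 1 marker higher (Cps1) and 2 lower (Apoa1, Ttr) in STZ. Macrophage markers were higher in 4 of 7 cases (Cd5l, Cd68, Clec4f and Vsig4), and all 7 had positive differences with an unadjusted p under 0.05 in limma. Of all named genes, 9.12% passed in either direction and 20.8% had an unadjusted p under 0.05. In 13 fits without a single array, the call held in 13 for Cd5l, 9 for Clec4f and 6 for Cd68. By an exact rank-sum test these genes did not pass (adjusted p = 0.161, 0.0874 and 0.161). The macrophage list mean was 8.66 to 9.09 in controls and 8.83 to 9.49 in STZ, a difference of 0.43 with 95% limits of 0.16 to 0.68. The mean of the sinusoidal endothelial markers differed by 0.13 (limits 0.05 to 0.21) and that of the hepatocyte markers by 0.0034 (limits -0.030 to 0.038). Of the 5 sinusoidal endothelial markers 3 had positive and 2 negative differences, with a median of 0.091 and the largest, 0.50, in Lyve1. Among the other marker lists, 1 of 5 sinusoidal endothelial (Lyve1) and 1 of 6 stellate cell genes (Dcn) were higher, 1 stellate cell gene (Lrat) was lower, and 0 of 4 bile duct and 0 of 5 lymphocyte genes passed the same limma test used for the ribosomal genes (1 and 0 of them at an unadjusted p under 0.05). Their part in the ribosomal results was not tested.

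As a whole the mitochondrial ribosomal gene set had nearly the same signal in both groups. The mean over the 77 genes was 8.79 ± 0.05 (SD, n = 7) in controls and 8.78 ± 0.07 (SD, n = 6) in STZ livers. In single arrays it ran from 8.70 (replicate 2) through a median of 8.79 (replicate 5) to 8.88 (replicate 6) in controls. In STZ it was 8.84, 8.67, 8.77, 8.83, 8.82 and 8.76 for replicates 1 to 6. No STZ array lay above all controls, and STZ replicate 2 alone lay below them. The difference, STZ minus control, was -0.009, with 95% limits of -0.084 to 0.062. On the linear scale that is -0.62%, with limits of -5.63% to 4.38%. The limits were obtained by inverting an exact permutation of the 13 arrays over its 1716 splits, which assumes that the treatment would shift every array alike. Values were normalised between arrays by RMA (array medians 6.22 to 6.31), so a change shared by all RNA would not be seen.

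Each subunit gave the same picture. The large subunit averaged 8.99 ± 0.05 (SD, n = 7) in controls and 8.98 ± 0.07 (SD, n = 6) in STZ, a difference of -0.013 with 95% limits of -0.088 to 0.056. For the small subunit the means were 8.47 ± 0.06 (SD, n = 7) and 8.46 ± 0.06 (SD, n = 6), a difference of -0.0029 with limits of -0.080 to 0.073. In percent, the limits were -5.9% to 3.97% for the large subunit and -5.39% to 5.19% for the small one. Without both arrays numbered 2, the difference over all 77 genes was -0.0009 with limits of -0.056 to 0.054. Without control replicate 6 alone it was 0.0056 (limits -0.068 to 0.071), without control replicate 2 alone -0.024 (limits -0.098 to 0.043) and without STZ replicate 2 alone 0.014 (limits -0.049 to 0.078), so its sign depended on single arrays.

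The subunits were then compared with each other within each array, which removes any shift they share. The large-subunit mean minus the small-subunit mean was 0.523 ± 0.019 (SD, n = 7) in controls and 0.514 ± 0.020 (SD, n = 6) in STZ. Controls ran from 0.490 to 0.550 and STZ livers from 0.481 to 0.540, so the groups overlapped almost completely. The change in balance was -0.0097, with 95% limits of -0.034 to 0.014, or -2.3% to 1.0% in linear terms. These limits are narrower than those of either subunit alone, and the arrays numbered 2, low in one subunit, were low in the other. Symbols do not always match the structure: the proteins of Mrps18a and Mrps30 sit in the large subunit, and that of Mrps36 belongs to a citric acid cycle enzyme complex. With these genes moved or left out, the balance changed by -0.017, with limits of -0.043 to 0.0083. Without control replicate 6 the change by symbol was -0.015, with limits of -0.037 to 0.0059, and without STZ replicate 2 it was -0.0031, with limits of -0.025 to 0.019.

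**Figure D1:**
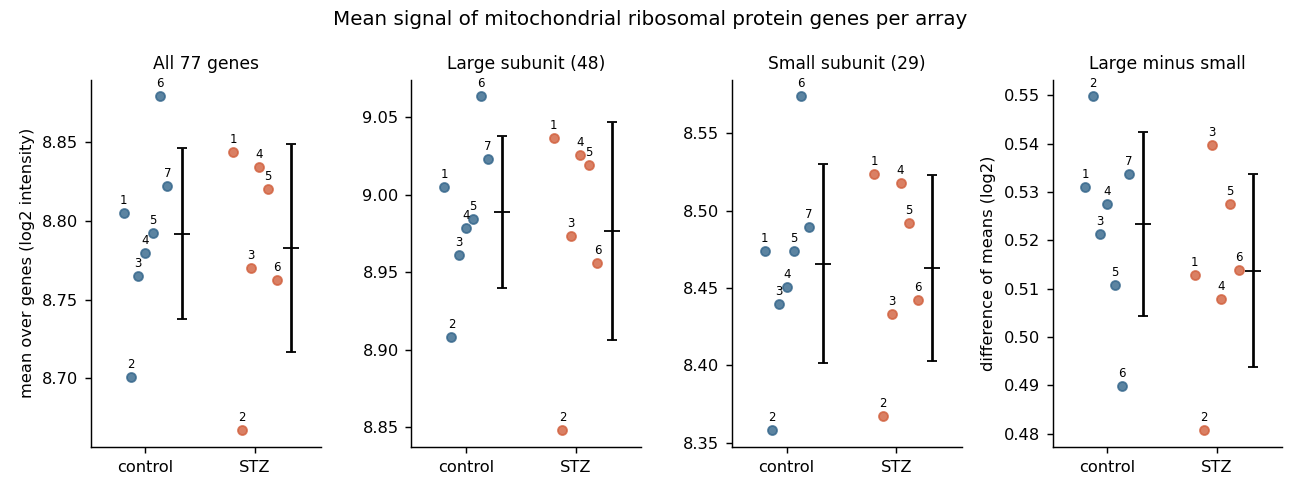
Mean log2 intensity per array over all 77 genes, the 48 large-subunit genes and the 29 small-subunit genes, and the large-subunit mean minus the small-subunit mean (log2), for 7 control (blue) and 6 STZ (orange) livers. Numbers are replicates, horizontal ticks with bars are group means ± SD, and vertical axes do not start at 0. The groups overlap in every panel, and the arrays numbered 2 are the lowest of their groups in the first 3 panels.

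Gene by gene, 1 of the 77 mitochondrial ribosomal genes passed the test (limma's moderated test, Benjamini-Hochberg adjusted p under 0.05 over all named genes). It was higher in STZ, and none was lower. Over all named genes 9.12% passed, 5.09% higher and 4.04% lower in STZ. In a fit restricted to genes brighter than the median gene, 18.6% of genes passed, and 3 of the 75 ribosomal genes in it (Mrpl40 and Mrpl13 higher, Mrps18a lower). At an unadjusted p under 0.05 there were 14 of 77 genes (18.2%, 5 higher and 9 lower), close to the 20.8% of all named genes. For 0 of 77 genes were the values of the groups free of overlap, against 3.86% of all named genes.

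Differences of the single genes lay on both sides of 0. In all, 36 were positive and 41 negative, from -0.22 to 0.22, with a median of -0.017 and quartiles of -0.062 and 0.057. The corresponding median over all named genes was -0.0063, with quartiles of -0.073 and 0.067. In the large subunit 22 differences were positive and 26 negative, and 10 of 48 had an unadjusted p under 0.05. In the small subunit 14 were positive and 15 negative, and 4 of 29 had one.

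The precision allowed bounds to be set for every gene. All 77 genes had 95% limits inside a 1.5-fold change in either direction, as did 94.5% of all named genes. For 53 of 77 (68.8%) the limits lay inside a 1.2-fold change, as they did for 66.4% of all named genes. The widest limits belonged to Mrps21 (-0.44 to 0.18) and Mrpl22 (-0.14 to 0.46), and the smallest standard error, 0.045, to Mrpl57. The median standard error was 0.065. Spread within groups was similar in both: the median SD over the genes was 0.109 in controls and 0.118 in STZ, and it was higher in STZ for 39 of 77 genes (50.6%, against 61.6% of all named genes).

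**Figure D2:**
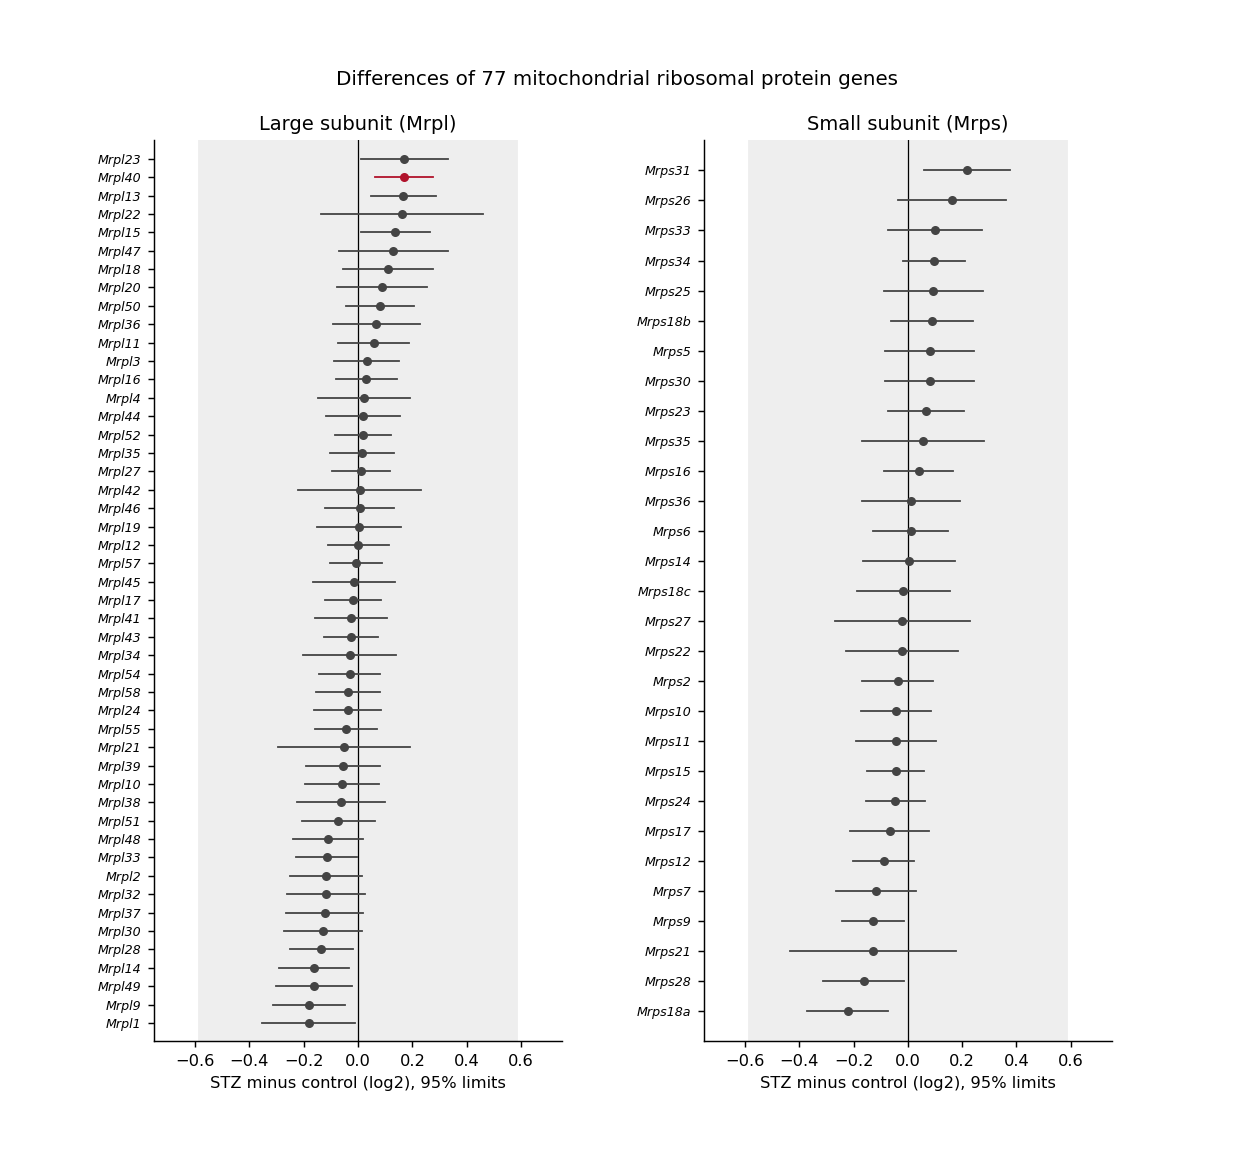
Difference between STZ and control livers (log2, points) with pointwise 95% limits from limma (lines) for the 48 Mrpl and 29 Mrps genes, ordered by size within each panel, with the gene that passed the test in red. The grey band marks a 1.5-fold change in either direction, and all 77 lines end inside it.

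Mrpl40, a mitochondria-specific protein of the central protuberance of the large subunit, was the gene that passed. Its log2 signal was lowest at 10.38, had a median of 10.47 and peaked at 10.55 in controls, and was 10.49 at the lowest, 10.65 at the median and 10.75 at the highest in STZ. STZ livers were above every control in 5 of 6 cases, and STZ replicate 6 fell among the controls. It rose by 0.17 ± 0.05 (SE, 95% limits 0.06 to 0.28), or 12.4% (limits 4.41% to 21.1%), at an adjusted p of 0.0455 in limma. That p lies just under the threshold: leaving out single arrays gave adjusted p values of 0.0211 to 0.0983, and the call held in 2 of these 13 fits.

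Mrps18a had the largest negative difference. It is a paralog of the bacterial S18 family that was recruited to the large subunit. Signals in controls were 9.02, 9.20 and 9.30 (lowest, median, highest), and in STZ 8.69, 8.98 and 9.14. In 4 of 6 STZ livers it was below every control. The difference was -0.22 ± 0.07 (SE), -14.3% in linear terms, and did not pass (adjusted p = 0.0629 in limma). The other S18 paralogs, which stayed in the small subunit, had differences of 0.088 ± 0.071 (Mrps18b) and -0.017 ± 0.081 (Mrps18c), neither of which passed.

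Mrps31, a mitochondria-specific small-subunit protein, had the largest positive difference. Controls were at 8.73, 8.81 and 9.13 (lowest, median, highest) and STZ livers at 8.90, 9.04 and 9.26. The highest control, replicate 2, stood apart from the other controls, and only 2 of 6 STZ livers exceeded it. The difference of 0.22 ± 0.07 (SE) did not pass (adjusted p = 0.0863 in limma).

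Mrpl13, Mrpl9 and Mrpl14 are large-subunit proteins with bacterial counterparts. Mrpl13 was at 8.19, 8.37 and 8.49 in controls and 8.40, 8.50 and 8.65 in STZ (lowest, median, highest), a difference of 0.17 ± 0.06 (SE, adjusted p = 0.0823 in limma). Mrpl9 was at 8.70, 8.94 and 9.05 in controls and 8.61, 8.74 and 8.91 in STZ, a difference of -0.18 ± 0.06 (SE, adjusted p = 0.0894 in limma). Mrpl14 was at 9.19, 9.30 and 9.38 in controls and 8.92, 9.14 and 9.29 in STZ, a difference of -0.16 ± 0.06 (SE, adjusted p = 0.122 in limma). The groups overlapped for all 3 genes. For Mrpl9, control replicate 2, at 8.70, stood far below the other controls and below 5 of 6 STZ livers.

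Which of these genes passed depended on single arrays. Without control replicate 2, 4 of the 77 genes passed, against 8.38% of all named genes. Mrpl40 (0.18) and Mrps31 (0.26) were higher, and Mrps18a (-0.25) and Mrpl9 (-0.22) lower. Without STZ replicate 5, 4 of the 77 passed as well, against 10.9% of all named genes. Mrps31 (0.25) was higher and Mrps18a (-0.26), Mrpl9 (-0.21) and Mrpl33 (-0.15) lower. Leaving out STZ replicate 6 gave 1 gene, Mrpl40 (0.20), against 7.52% of all named genes. Each of the other 10 such fits gave 0 genes, with 9 to 14 at an unadjusted p under 0.05 in limma. These 10 fits called 7.02% to 9.12% of all named genes. Without both arrays numbered 2, Mrps31 (0.28) and Mrpl9 (-0.19) passed and Mrpl40 did not. That fit called 7.36% of all named genes.

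**Figure D3:**
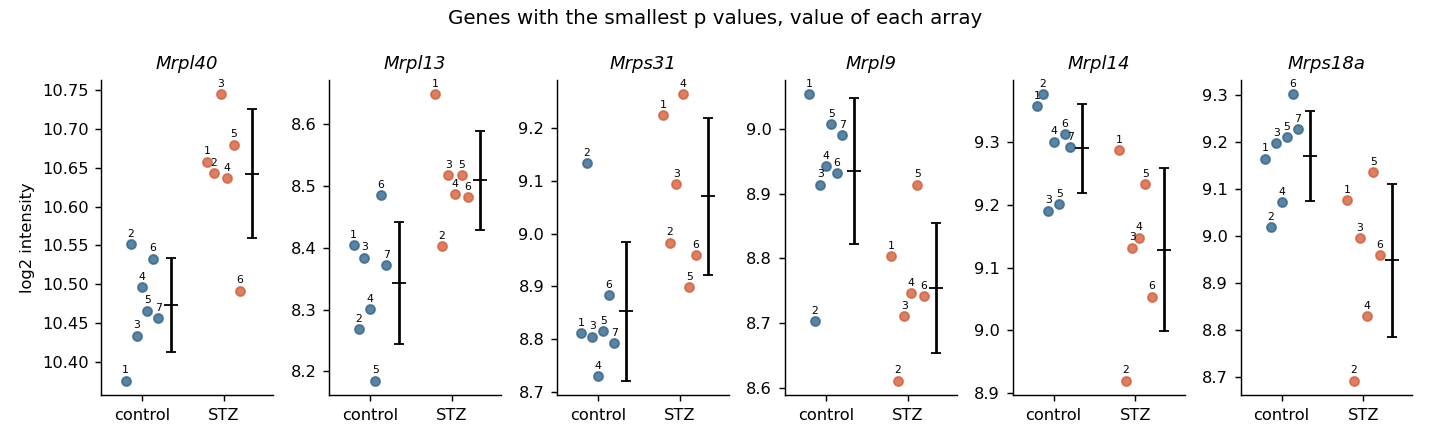
Log2 intensity of 6 genes in each of 7 control (blue) and 6 STZ (orange) livers, numbered by replicate, with group means ± SD (ticks and bars) and vertical axes that do not start at 0. Mrpl40 is above all controls in 5 of 6 STZ livers and Mrps18a below all controls in 4 of 6, while Mrpl9 and Mrps31 each have control replicate 2 among the STZ values.

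The remaining genes with large differences did not pass either. On the negative side were Mrpl1 (-0.18 ± 0.08, SE), Mrpl49 (-0.16 ± 0.07), Mrps28 (-0.16 ± 0.07), Mrpl28 (-0.13 ± 0.06), Mrpl30 (-0.13 ± 0.07), Mrps21 (-0.13 ± 0.14) and Mrps9 (-0.13 ± 0.05). On the positive side were Mrpl23 (0.17 ± 0.08), Mrpl22 (0.16 ± 0.14), Mrps26 (0.16 ± 0.09), Mrpl15 (0.14 ± 0.06), Mrpl47 (0.13 ± 0.09), Mrpl18 (0.11 ± 0.08) and Mrps33 (0.10 ± 0.08). Mrpl1, the protein of the L1 stalk beside the tRNA exit site, was unevenly spread: controls lay between 8.58 and 8.75, and STZ livers between 8.03 and 8.67. Its SD was 0.057 (n = 7) in controls and 0.222 (n = 6) in STZ, and 5 of 6 STZ livers were below every control.

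For 8 genes a second probe set was available. Mrpl23 had differences of 0.171 and 0.175 in its 2 probe sets, and Mrps33 of 0.10 and 0.081. The Mrpl47 probe sets disagreed, at 0.130 in the brighter and -0.018 in the other. Mrpl27 also had opposite signs, 0.011 and -0.033, both small.

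The genes were next grouped by the place of their proteins in the ribosome. The 3 stalk proteins Mrpl10 (-0.059 ± 0.065, SE), Mrpl11 (0.057 ± 0.062) and Mrpl12 (0.0012 ± 0.054), which recruit translation factors, gave 0 passing genes in limma and 0 at an unadjusted p under 0.05. Their mean differed by -0.0001, with 95% limits of -0.073 to 0.072. In the central protuberance, Mrpl40 rose, and Mrpl38 (-0.062 ± 0.076), Mrpl46 (0.0058 ± 0.060) and Mrpl48 (-0.11 ± 0.06) did not pass. The mean of these 4 differed by 0.0005 (limits -0.086 to 0.085).

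The polypeptide exit and membrane anchor gave the largest positive mean among these groups, without a passing gene. Mrpl22 and Mrpl23 line the tunnel mouth and are given above; beside them were Mrpl17 (-0.020 ± 0.049, SE), Mrpl24 (-0.038 ± 0.058), Mrpl44 (0.018 ± 0.064) and Mrpl45 (-0.015 ± 0.072), the last of which ties the ribosome to the inner membrane. The mean of the 6 differed by 0.047 (95% limits -0.068 to 0.162), and 1 of 6 had an unadjusted p under 0.05 in limma. Around the peptidyl transferase centre, Mrpl2 (-0.12 ± 0.06), Mrpl3 (0.031 ± 0.057), Mrpl4 (0.022 ± 0.080), Mrpl16 (0.031 ± 0.053) and Mrpl27 (0.011 ± 0.050) averaged -0.0045 (limits -0.063 to 0.055), with 0 of 5 at an unadjusted p under 0.05.

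In the small subunit, 5 proteins of the decoding site and mRNA path were measured. They were Mrps2 (-0.037 ± 0.062, SE), Mrps5 (0.081 ± 0.078), Mrps12 (-0.090 ± 0.054), Mrps24 (-0.046 ± 0.051) and Mrps35 (0.057 ± 0.106), of which Mrps12 lies at the decoding centre. Their mean differed by -0.0070 (95% limits -0.084 to 0.068), and 0 of 5 passed in limma or had an unadjusted p under 0.05. Across both subunits, the 31 genes for proteins classed as mitochondria-specific, Mrps18a and Mrps18b among them, had a mean difference of 0.0071 (limits -0.073 to 0.084), with 15 positive, 16 negative and 1 passing, Mrpl40.

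The rest of the mitochondrial translation machinery was read from the same fit. Of 4 ribosome components that carry other symbols, 0 passed in limma and 0 had an unadjusted p under 0.05; Dap3, the GTP-binding protein of the small subunit, had the smallest p (0.10 ± 0.07, SE). Of 24 assembly and rRNA modification factors 1 was higher: Mettl15, a methyltransferase of the small-subunit rRNA, spanned 7.27 to 7.60 in controls and 7.42 to 7.93 in STZ and rose by 0.33 ± 0.08 (SE, adjusted p = 0.0198 in limma). Of 15 translation factors and activators 1 was lower: Mtif2, the initiation factor that brings the first tRNA to the ribosome, spanned 7.791 to 8.001 in controls and 7.51 to 7.96 in STZ and fell by 0.24 ± 0.07 on the log2 scale (SE, adjusted p = 0.0415 in limma). The Mtif2 call held in 2 of 13 fits without a single array, and that of Mettl15 in all 13. Mettl15 lost its call with only the STZ arrays of label numbers 29 to 32 (adjusted p = 0.0721 in limma), by an exact rank-sum test (adjusted p = 0.161) and with the replicate number as a block (adjusted p = 0.0709 in limma). Of 18 mitochondrial aminoacyl-tRNA synthetases 0 passed, with 2 at an unadjusted p under 0.05, and of 5 genes for transcription of mitochondrial DNA 0 passed, with 1 at an unadjusted p under 0.05.

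Other gene sets showed how large a shift the same arrays gave elsewhere. Of 61 cytosolic ribosomal protein genes 1 was lower, Rpl22 (-0.19 ± 0.06, SE; called in 2 of 13 fits without a single array), and their mean differed by -0.0097 (95% limits -0.090 to 0.067). Of 79 nuclear genes for respiratory chain and ATP synthase subunits 1 was higher (Ndufa7, 0.19 ± 0.05) and 1 lower (Ndufb3, -0.22 ± 0.06), each called in 4 of 13 such fits, and their mean differed by 0.021 (limits -0.041 to 0.081). The mitochondrial ribosomal mean relative to the cytosolic ribosomal mean in the same array changed by 0.0008 (limits -0.096 to 0.083). Relative to the respiratory chain mean it changed by -0.030, with limits of -0.058 to 0.0003, which just include 0.

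**Figure D4:**
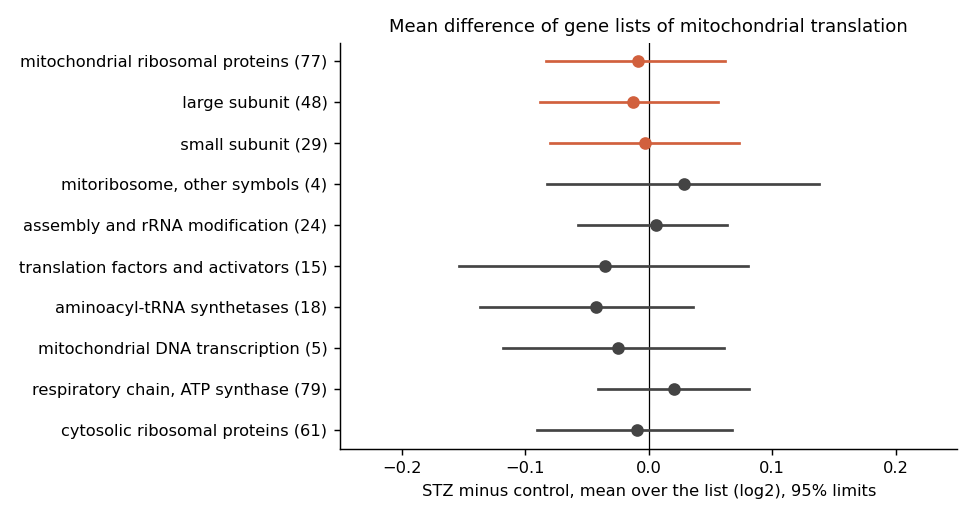
Difference between STZ and control livers in the mean over each gene list (log2, points) with 95% limits from permuting the arrays (lines), number of genes in parentheses, mitochondrial ribosomal genes in orange. The limits of the 10 lists drawn include 0. The nuclear regulators and the cell type markers, described in the text, are not drawn.

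Of 11 nuclear regulators of mitochondrial genes, 1 was higher and 1 lower in STZ livers. Ppargc1a, the coactivator PGC-1alpha that raises mitochondrial gene expression through factors such as NRF1 and ERR alpha, spanned 7.93 to 8.46 in controls and 8.59 to 9.69 in STZ, without overlap. It rose by 0.91 ± 0.17 (SE, adjusted p = 0.00291 in limma). Gabpa, the DNA-binding subunit of the ETS-family factor GABP, spanned 8.35 to 8.56 in controls and 8.07 to 8.35 in STZ, without overlap, and fell by 0.23 ± 0.05 on the log2 scale (SE, adjusted p = 0.0108 in limma). Neither gene lost its call in any of 13 fits without a single array, and with the replicate number as a block Gabpa came to an adjusted p of 0.0503 in limma. The mean over the 11 regulators differed by 0.16, with 95% limits of 0.015 to 0.298. Ppargc1a and Myc had by far the largest differences in it. Of the 11 differences 6 were positive and 5 negative, with a median of 0.059, so the higher mean was not shared by all regulators. The other 9 regulators did not pass: Nrf1 (0.12 ± 0.06), Esrra (0.13 ± 0.06), Yy1 (-0.13 ± 0.07), Ppargc1b (-0.15 ± 0.10), Pprc1 (0.079 ± 0.090), Gabpb1 (0.059 ± 0.075), Gabpb2 (-0.030 ± 0.053), Sp1 (-0.012 ± 0.085) and Myc (0.98 ± 0.38, adjusted p = 0.135).

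Promoter sequences were searched for short motifs of these factors around the starts of the ribosomal genes. A match does not show that the factor binds there. RefSeq promoter windows (build GRCm38.p6, 250 bases before to 50 after a gene's start) were found for 68 of the 77 genes, 74 windows in all. The 4 below were chosen to show Mrpl40, the one gene that passed, Mrps18a and Mrpl9, whose windows hold matches for GABP and NRF1, and Mrps12, the decoding-centre gene. Capitals mark motif matches on either strand. Mrpl40 (chr16:18876588-18876887, minus strand) has 2 SP1 matches. Mrps18a (chr17:46110754-46111053, plus strand) has an ETS match before its start and a YY1 match after it. Mrpl9 (chr3:94443086-94443385, plus strand) has a palindrome that matches NRF1 on both strands. Mrps12 (chr7:28741772-28742071, minus strand) has 1 match each for YY1, SP1 and ETS, of which the ETS match lies after its start.
Mrpl40: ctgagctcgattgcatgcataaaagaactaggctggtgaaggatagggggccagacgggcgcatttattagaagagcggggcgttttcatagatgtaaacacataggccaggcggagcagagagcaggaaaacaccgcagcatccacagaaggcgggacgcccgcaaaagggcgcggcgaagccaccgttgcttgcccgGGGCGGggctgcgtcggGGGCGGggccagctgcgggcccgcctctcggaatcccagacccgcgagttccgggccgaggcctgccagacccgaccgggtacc
Mrps18a: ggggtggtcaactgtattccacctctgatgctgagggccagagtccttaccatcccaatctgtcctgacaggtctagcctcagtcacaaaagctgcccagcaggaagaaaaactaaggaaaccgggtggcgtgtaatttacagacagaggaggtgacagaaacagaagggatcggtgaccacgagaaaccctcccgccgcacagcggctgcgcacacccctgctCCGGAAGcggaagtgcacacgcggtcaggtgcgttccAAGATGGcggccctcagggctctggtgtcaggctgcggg
Mrpl9: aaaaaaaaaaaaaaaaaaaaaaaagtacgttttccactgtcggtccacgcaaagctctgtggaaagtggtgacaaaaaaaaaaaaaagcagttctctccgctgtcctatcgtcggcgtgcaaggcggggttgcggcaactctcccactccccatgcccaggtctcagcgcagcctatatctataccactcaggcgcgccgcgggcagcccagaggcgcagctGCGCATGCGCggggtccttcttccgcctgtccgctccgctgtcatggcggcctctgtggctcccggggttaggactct
Mrps12: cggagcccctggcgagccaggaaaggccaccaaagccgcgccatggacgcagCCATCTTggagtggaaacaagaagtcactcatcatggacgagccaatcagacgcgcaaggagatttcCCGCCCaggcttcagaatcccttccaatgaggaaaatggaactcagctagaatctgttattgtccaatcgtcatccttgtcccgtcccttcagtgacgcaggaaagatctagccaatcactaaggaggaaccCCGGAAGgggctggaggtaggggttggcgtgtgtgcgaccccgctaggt

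Across the 74 windows, ETS-family sites were frequent. The ETS motif bound by GABP, CCGGAAG, was in 25 windows (33.8%), against 8.86% of all 32851 mouse promoter windows and 11.6% of those of protein-coding genes. The NRF1 motif GCATGCGC was in 8 windows (10.8%, against 2.71% and 3.51%), among them those of Mrpl9 and Mrpl22. The YY1 motif AAGATGG was in 13 (17.6%, against 6.34% and 6.24%). The SP1 motif GGGCGG was in 39 (52.7%, against 35.7% and 46.2%). Both strands were searched. Matches of different motifs may overlap, and no test was made.

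Other motifs were near or under their general share. The E-box CACGTG bound by MYC was in 7 windows (9.46%, against 7.15% of all windows), the CREB motif TGACGTCA in 2 (2.7%, against 1.79%), and the TATA motif TATAAA in 5 (6.76%, against 13.6%). The ERR motif TCAAGGTCA was in 0, against 0.42% of all windows. The windows of the ribosomal genes had a median GC content of 58.5%, against 52.7% for all windows and 56.3% for those of protein-coding genes. Among the 7483 protein-coding windows whose GC content lay within the quartiles of the ribosomal genes, 16.0% held the ETS motif, 4.77% the NRF1 motif and 6.86% the YY1 motif. These windows were not matched for the dinucleotide CG, which the ETS and NRF1 motifs contain. Its median count was 16 in them and 21 in the windows of the ribosomal genes. In the same GC range, 55.5% held the SP1 motif and 6.59% the TATA motif, so the ribosomal genes' shares of 52.7% and 6.76% were close to those of promoters of like GC content. The E-box was in 9.38%, the CREB motif in 3.11% and the ERR motif in 0.27% of that range. In all, 37 of 68 genes held a match for at least 1 of NRF1, ETS and YY1, and 31 held none.

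**Figure D5:**
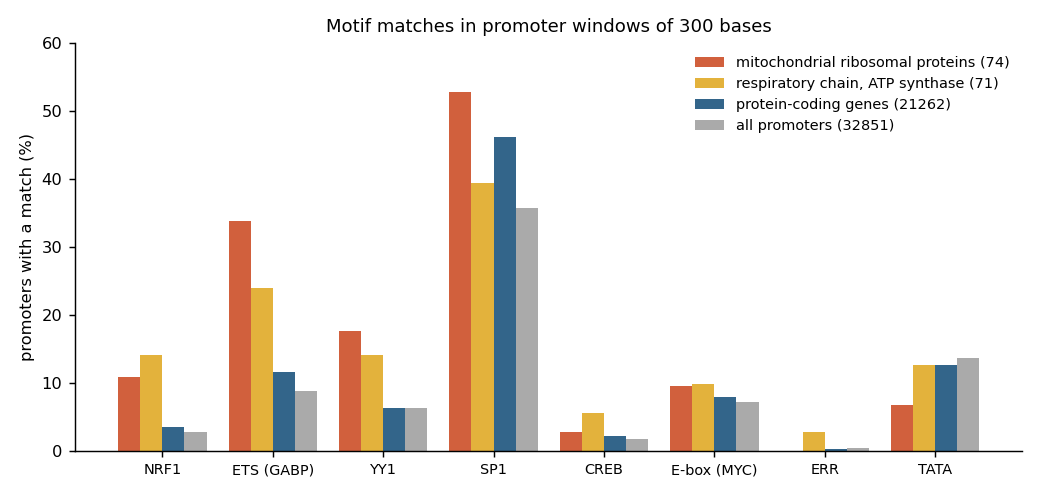
Share of RefSeq promoter windows (%) with at least 1 match to each motif on either strand, for mitochondrial ribosomal genes, respiratory chain and ATP synthase genes, protein-coding genes and all promoters, with the number of windows in parentheses. Of the sets drawn, the ribosomal genes have the highest share for ETS (33.8%) and YY1 (17.6%) and the respiratory chain genes for NRF1 (14.08%). For SP1 the ribosomal genes have 52.7%, under the 55.5% of protein-coding windows of like GC content, which are not drawn.

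The difference between STZ and control livers was then read for genes with and without these motifs. The median difference was -0.020 over the 25 genes with an ETS match and -0.025 over the 43 without. It was -0.057 over the 8 genes with an NRF1 match and -0.016 over the 60 without, and -0.046 over the 13 genes with a YY1 match and -0.015 over the 55 without. For all 3 motifs the genes with a match ranged over both signs. With differences this small and so few genes in a class, these medians are given as a description.

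Many of the ribosomal genes share their promoter region with a neighbour that points the other way. Of the 68 genes, 21 (30.9%) had a protein-coding gene on the opposite strand starting at most 500 bases away, against 7.53% of protein-coding genes. Some partners work in the same organelle: Mrps12 faces Sars2, the mitochondrial seryl-tRNA synthetase, Mrpl43 faces Twnk, the mitochondrial DNA helicase, Mrpl47 faces Ndufb5, a complex I subunit, and Mrpl46 and Mrps11 face each other. Mrpl49 faces Fau, which encodes a cytosolic ribosomal protein. Of the 20 measured coding partners, Mrpl46 and Mrps11 among them, 1 passed, against 9.12% of all named genes. It was the chaperonin subunit Tcp1 beside Mrpl18. Tcp1 fell by 0.25 ± 0.05 on the log2 scale (SE, adjusted p = 0.00458 in limma), and Mrpl18 had a difference of 0.11 ± 0.08 that did not pass. Hira, a histone chaperone gene that faces Mrpl40, had a difference of -0.0021 ± 0.053. These partner genes were named after their values were seen.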

How the data were processed

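The deposited values are log2 intensities made by the authors with RMA (software Affymetrix Expression Console, version 1.2), as the submitters' processing notes name them; the genome build behind the probe sets is not given in the sources used here. Of 35556 probe sets, 21789 carried 1 gene symbol in the platform annotation, 1621 several and 12146 none; 21698 were matched to RefSeq (GRCm38.p6). Each of 19938 genes was represented by its brightest probe set. All 13 arrays (7 control, 6 STZ, biological replicates per the labels) were fitted with limma 3.58.1 (R 4.3.3; lmFit, eBayes, Benjamini-Hochberg over all named genes, threshold 0.05), after the code was tested on simulated data. Limits of mean shifts came from permuting the arrays (Python 3.11.15). The number of arrays limits the precision, and the labels give no batch. The ribosomal genes and all lists were chosen with earlier results of these data known. Named genes are those that passed, the 10 largest differences in each direction, the 4 smallest p values per subunit, the genes of the role lists, the nuclear regulators, the leading genes of other lists and genes with an outlying array. Alternatives covered probe set choice, filtering, variance model, array weights, centring, rank-sum test, block, subunit assignment and leaving out arrays.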

Additional observations from a re-analysis of the deposited data

Results flagged for a closer look

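In several mitochondrial ribosomal genes 1 array stood far from the rest of its group, with a gap to the nearest array above Dixon's 95% critical value. Such gaps were found in 21 of 154 groups (77 genes in 2 groups, 13.6%). For independent values the nominal rate is about 1 in 20, but genes on 1 array can vary together. The share over all named genes was not computed, so these gaps cannot be called particular to the ribosomal genes. Control replicate 2 was the array in 13 of the 21, STZ replicates 2 and 3 in 3 each, and control replicate 3 and STZ replicate 1 in 1 each.

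Among the genes named in the text, control replicate 2 was low for Mrpl18 (8.62 log2), Mrpl23 (9.95), Mrpl45 (7.72), Mrpl9 (8.70), Mrps18c (8.59) and Mrps5 (9.04). The same array was high for Mrps2 (9.30) and Mrps31 (9.13). STZ replicate 2 was low for Mrpl10 (10.20) and Mrpl45 (7.72). STZ replicate 3 was low for Mrpl30 (9.40), Mrps18c (8.66) and Mrps5 (9.27), and STZ replicate 1 was high for Mrpl12 (10.14). Control replicate 3 was low for Mrpl33 (6.56).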

How the results depend on the processing

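The mean shifts of the 77 genes, of each subunit and of the balance between subunits stayed within 1 SD between replicates of their main value under all 22 alternatives run for each. That margin, 0.06 for all 77 genes, is wide beside the main shift of -0.009. Leaving out 1 array can move a group mean by only part of 1 SD, so those fits stay inside the margin by construction. Leaving out single arrays moved the overall shift between -0.0241 and 0.0142 and the balance between -0.0153 and -0.0031. The number of ribosomal genes that passed, 1 in the main analysis, ran from 0 to 4 when single arrays were left out. Of all named genes, 9.12% passed in the main analysis and 7.02% to 10.9% in those fits. The number of ribosomal genes was 3 with only the STZ arrays of label numbers 29 to 32, 3 with array weights and 3 when only genes above the median brightness were fitted. Those fits called 9.96%, 9.77% and 18.6% of the genes tested in each. The number was 2 without both arrays numbered 2 (7.36% of all named genes), an alternative chosen after seeing the data. It was 0 in limma with arrays centred on their median gene (12 genes at an unadjusted p under 0.05) and 0 by an exact rank-sum test (10 genes). Of all named genes, 8.68% passed with centred arrays and 5.46% by the rank-sum test. Mrpl40 kept its direction in every alternative and lost its call in 16 of 22. The cause of these changes was not tested.

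With the replicate number as a block (6 pairs), limma called 0 ribosomal genes (11 at an unadjusted p under 0.05) and 1256 of all named genes. No label says that the numbers pair the mice. Deviations of same-numbered arrays correlated at -0.086 to 0.187, above 0.1 in 2 of 6 pairs. Of the 6, 1 correlated best with its own number, number 2 (0.187). Such correlations cannot settle whether the mice were paired.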
